A study of Homo sapiens with 8 samples.

Results

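Aminoacyl-tRNA synthetases attach each amino acid to its transfer RNA, and the ribosome builds proteins from the amino acids that charged transfer RNAs bring. Human cells hold one set of these enzymes in the cytosol and another in the mitochondrion, nearly all of them encoded in the nucleus by separate genes. The mitochondrial genes carry the suffix 2, and GARS and KARS each give both a cytosolic and a mitochondrial protein. Many cytosolic synthetase genes are known as targets of the transcription factor ATF4, which acts when amino acids run short.

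The genes were chosen by symbol from the probe table of the array, where current names with the suffix 1 and older names also counted. The list held 36 genes, 20 cytosolic and 16 mitochondrial, and 35 of them had 40 probes among the 24460 of the array. FARSB was found under FARSLB, the second probe of HARS2 under HARSL, and both probes of VARS2 under VARSL. A probe was tested when its spot was brighter than 95% of the blank spots on at least 2 arrays. This left 38 synthetase probes and 34 genes (19 cytosolic, 15 mitochondrial) among 12904 tested probes and 10260 tested genes. The probes of VARS2 lay above that level on 0 arrays. Where a gene had more than 1 tested probe (SARS, FARS2, HARS2 and IARS2), counts used the brighter one.

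The mRNA of HCT116 cells, a human colorectal cancer line, was measured on one-colour arrays after transfection. In the miR-8073 mimic group (3 arrays) the cells received a synthetic double-stranded copy of the microRNA. In the negative control group (3 arrays) they received a commercial duplex of unrelated sequence, and in the mock group (2 arrays) no sequence. A mimic puts a large amount of one microRNA into the cell, and HCT116 is a single line in culture. For the time between transfection and RNA extraction the study states 2 different values. Nothing in the labels says that replicates came from separate cultures, and a p-value therefore refers to the spread among these arrays alone, part or all of which may be technical.

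Between 47.3% and 52.3% of probes were above background on an array, and arrays correlated at 0.993 to 0.996 within groups and 0.983 to 0.993 between groups. The epithelial genes EPCAM, KRT18, KRT19, CDH1 and VIL1 were above background on all 8 arrays, while the leukocyte genes PTPRC and CD3E, the endothelial genes VWF and CDH5 and the fibroblast genes COL1A1, COL1A2 and LUM were above it on 0. CD14, another leukocyte gene, was above background on 1 array. LGALS4, a gene of intestinal epithelium, was above background on 0 arrays and DCN, a fibroblast gene, on all 8.

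The transfected microRNA is shown because its seed, the bases that pair with a target mRNA, defines what the mimic can bind. The mature sequence of miR-8073 in RefSeq (GRCh38.p14) lies at chr13:110340968-110340989 on the plus strand and has 22 bases. Its seed (bases 2 to 8) is given in capitals. No other mature microRNA in the RefSeq set used here had this seed. The paper, however, names another microRNA with the same seed, so the seed cannot be taken as unique to miR-8073.
hsa-miR-8073: aCCUGGCAgcagggagcgucgu
An mRNA site for this seed reads TGCCAGG in DNA letters. The transcripts of the synthetase genes were not searched for it, because no transcript sequences were used here.

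A stretch of the synthetase promoters is shown for another reason. The letters TTGCATCA are the core of a known amino acid response element, to which ATF4 binds together with a C/EBP protein. They were searched on both strands (TGATGCAA on the other) in RefSeq windows of 250 bases before to 50 bases after each gene start. Of the 16 cytosolic genes with a window, 6 held these letters (37.5%), against 0 of 14 mitochondrial genes and 295 of all 27305 genes (1.08%). The windows of LARS1, VARS1, YARS1, AARS2 and VARS2 were not used here. The 6 sites are given with the motif in capitals and up to 30 bases in all, read along the strand of the gene.
TARS1 (chr5:33440956-33440985, plus strand): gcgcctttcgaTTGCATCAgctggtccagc
MARS1 (chr12:57488053-57488082, plus strand): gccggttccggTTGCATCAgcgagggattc
IARS1 (chr9:92293692-92293721, minus strand): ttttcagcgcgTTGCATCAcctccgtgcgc
CARS1 (chr11:3057407-3057436, minus strand): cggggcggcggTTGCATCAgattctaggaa
AARS1 (chr16:70289675-70289704, minus strand): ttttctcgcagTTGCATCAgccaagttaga
NARS1 (chr18:57621804-57621833, minus strand): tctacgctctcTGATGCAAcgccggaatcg
In NARS1 alone of these 6 the motif ran in the other orientation. A match is only a description of these letters in this window.

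FARSA encodes the alpha subunit of cytosolic phenylalanyl-tRNA synthetase, which holds the catalytic site. Its fall in mimic cells was known when the genes were listed and is given as a description. FARSA had signals of 67.8, 97.4 and 85.9 scanner units on the mimic arrays, 381, 203 and 330 on the negative control arrays, and 255 and 284 on the mock arrays. No mimic array reached the level of any of the 5 control arrays, of which negative control replicate 2 was the lowest. The mean was 83.7 ± 14.9 in mimic cells and 305 ± 91.5 in negative control cells (SD, n = 3 each), and 270 ± 20.7 in mock cells (SD, n = 2). The signal was therefore 3.64-fold lower in mimic than in negative control cells, with a log2 change of -1.38 ± 0.19 (SE) and a limma adjusted p of 0.00441. A log2 change here is that of signal + 50, which understates the change of dim genes. Against mock the signal was 3.22-fold lower (log2 change -1.26 ± 0.21, limma adjusted p = 0.0230). Negative control and mock cells differed by 0.12 ± 0.21 (limma adjusted p = 0.803). In bulk RNA a lower level per cell and fewer cells with the transcript cannot be told apart. Without mimic replicate 1 or 3, or without either mock array, the fall against mock no longer passed (adjusted p 0.0672 to 0.121), while that against the negative control passed whichever array was left out.

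FARSB encodes the beta subunit, and the enzyme is built of both. FARSB had 351, 546.5 and 445 scanner units on the mimic arrays, 541, 582 and 482 on the negative control arrays, and 444 and 567 on the mock arrays. The groups overlapped. The log2 change was -0.25 (95% confidence interval -0.61 to 0.11, limma adjusted p = 0.314) for mimic minus negative control and -0.17 (-0.57 to 0.23, limma adjusted p = 0.680) for mimic minus mock. These intervals leave room for a fall of FARSB, though for one smaller than the fitted fall of FARSA.

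The change of FARSA beside that of FARSB was read on each array as the difference between their log2 values. Because probes bind with unequal strength, this difference has no meaning as a level and was compared only between groups. It was -1.77, -2.02 and -1.86 on the mimic arrays, -0.46, -1.32 and -0.49 on the negative control arrays, and -0.70 and -0.89 on the mock arrays. The mimic arrays stood below the 5 control arrays, of which negative control replicate 2 came nearest. The mean difference was lower by 1.13 in mimic than in negative control cells and by 1.09 in mimic than in mock cells. Against the mean of the 5 control arrays it was -1.11. This value is a description with no test, since the fall of FARSA was known when it was listed. The third phenylalanyl-tRNA synthetase gene, FARS2, encodes a mitochondrial enzyme that acts as a single chain. FARS2 had 29.4, 39.9 and 30.4 scanner units in mimic cells, 35.4, 29.3 and 29.1 in negative control cells, and 33.0 and 35.4 in mock cells. The log2 change of FARS2 was 0.03 for mimic minus negative control (limma adjusted p = 0.749), and its dimmer probe had 0.13 (limma adjusted p = 0.104).

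**Figure D1:**
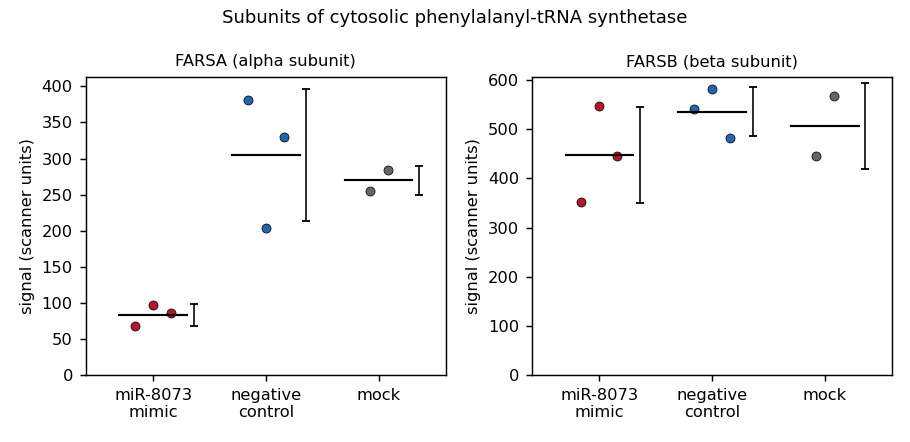
Signal of FARSA and FARSB in scanner units (vertical axis, from 0) in miR-8073 mimic (3 arrays), negative control (3) and mock cells (2). Points are arrays, lines are means and bars are the SD. All FARSA points of mimic cells lie below 100 and all control points above 200, while the FARSB points of the 3 groups overlap.

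The genes whose pattern over the 8 arrays was most like FARSA were EI24 (Pearson r = 0.986), MPI (0.986), YIPF3 (0.979), DCTPP1 (0.978) and OPN3 (0.978). None of them is a synthetase. MPI, which interconverts mannose and fructose phosphates, had 17.5, 20.8 and 17.7 scanner units in mimic cells, 43.9, 36.9 and 42.0 in negative control cells, and 35.9 and 39.1 in mock cells. These correlations describe 8 arrays that share the 3 groups.

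Among the 34 genes, 8 passed the threshold of an adjusted p below 0.05 for mimic minus negative control, against 16.8% of all tested genes. FARSA, IARS2 and LARS2 were lower in mimic cells, where 8.67% of all tested genes were lower, and MARS, TARS, WARS, NARS2 and YARS2 were higher, where 8.13% were. The cytosolic genes gave 1 lower and 3 higher of 19, and the mitochondrial genes 2 lower and 2 higher of 15. The difference between the classes was not tested. The median log2 change was 0.13 for the cytosolic and 0.03 for the mitochondrial genes, beside 0.00 for all tested genes. The sign was positive in 25 of the 34 genes and in 5271 of all 10260 tested genes. The 26 genes that did not pass had changes between -0.25 (FARSB) and 0.37 (EPRS, the joined glutamyl- and prolyl-tRNA synthetase).

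For mimic minus mock 3 genes passed the threshold, FARSA, HARS2 and LARS2, all lower, against 4.22% of all tested genes and 2.88% lower. The count of higher genes was 0 by limma, against 1.35% of all tested genes, and was 0 by the methods' t-test after adjustment. At an unadjusted limma p below 0.05, 2 of the 34 genes were higher, against 985 of all 10260 tested genes. At that level 7 of the 34 were lower, against 1057 of all tested genes. The median log2 change was 0.00 for the cytosolic genes and -0.02 for the mitochondrial genes, beside 0.01 for all tested genes. The sign was positive in 17 of the 34 genes, against 5468 of all 10260 tested genes, and negative in 17. The 31 other genes lay between -0.58 (IARS2) and 0.35 (HARS). FARSA and LARS2 were lower in mimic cells than in either control, where 2.26% of all tested genes were. Both comparisons use the same mimic arrays.

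For negative control minus mock 2 genes passed, MARS and TARS, both lower in negative control cells, against 3.89% of all tested genes and 2.28% lower. The count of higher genes was 0 by limma, against 1.61% of all tested genes, and was 0 by the methods' t-test after adjustment. At an unadjusted limma p below 0.05, 1 of the 34 genes was higher, against 1123 of all 10260 tested genes. At that level 9 of the 34 were lower, against 1131 of all tested genes. The sign was negative in 27 of the 34 genes and in 5027 of all 10260 tested genes. The median log2 change was -0.14 for the cytosolic and -0.05 for the mitochondrial genes, beside 0.00 for all tested genes. The 32 other genes lay between -0.54 (GARS) and 0.21 (CARS2).

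These calls rested on the background being taken from the blank spots. With background read from the ring of pixels next to a spot, limma called 0 of the 34 genes in each of the 3 comparisons, with 1 gene at an unadjusted p below 0.05 for mimic minus negative control, 0 for mimic minus mock and 1 for negative control minus mock. Without mimic replicate 2 the 8 genes of the first comparison became 3. They became 4 without negative control replicate 1 or replicate 2, and 5 without negative control replicate 3. The calls over all tested genes fell as well, and with the ring they were 0 in each comparison. For mimic minus negative control they were 1724, and 1190, 919, 1207 and 1038 without these arrays in the same order.

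**Figure D2:**
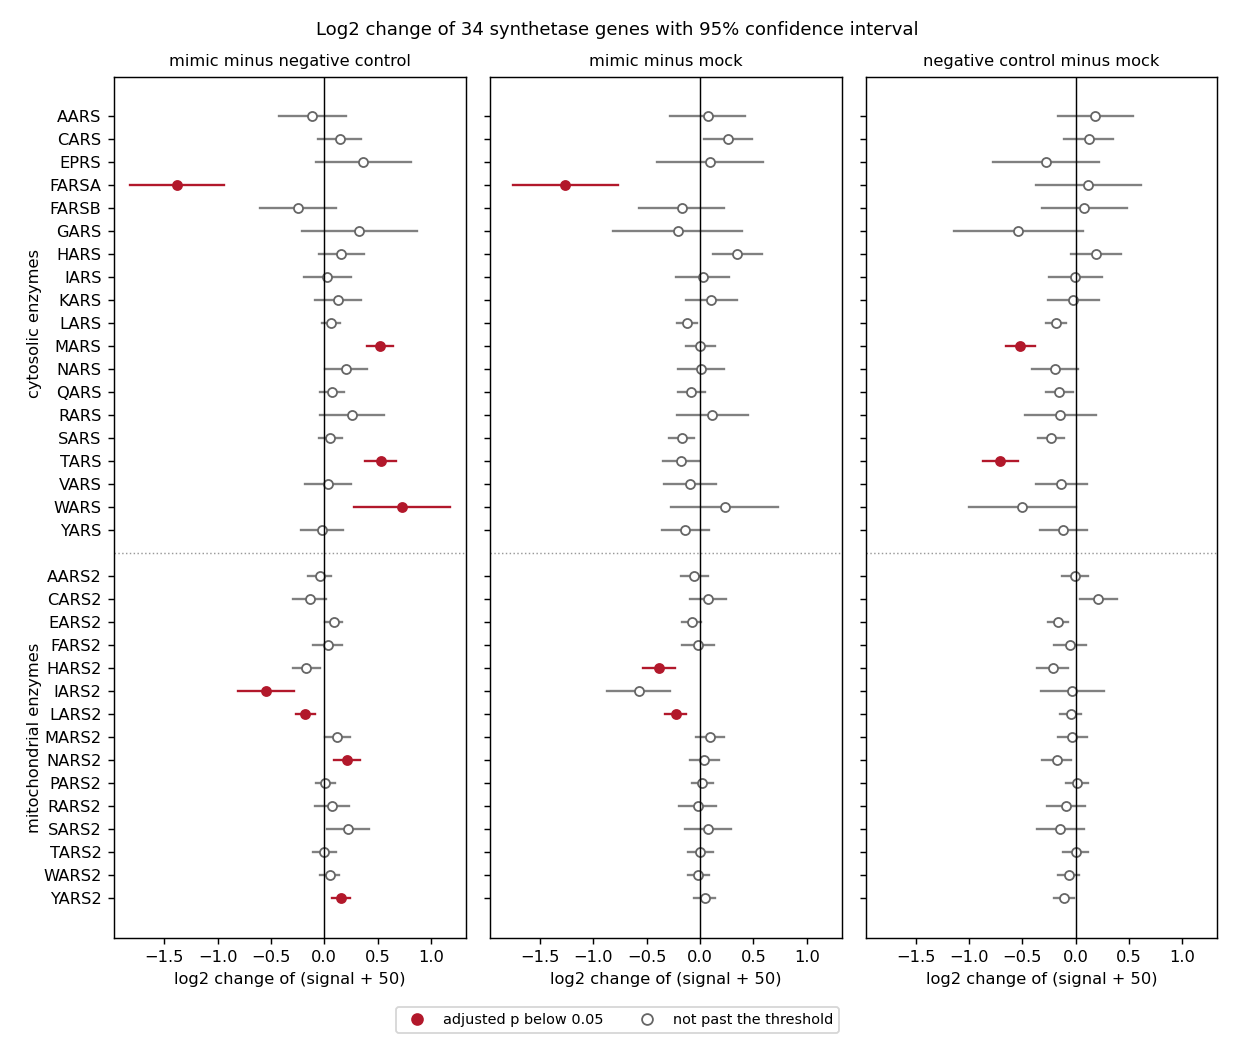
Log2 change of signal + 50 (horizontal axis) for the 34 tested synthetase genes, cytosolic above and mitochondrial below, in the 3 comparisons. Points are estimates, bars are 95% confidence intervals, and filled points passed an adjusted p of 0.05. FARSA stands furthest to the left in both comparisons of mimic cells, and MARS and TARS are filled on the right in the first panel and on the left in the third.

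MARS and TARS encode the cytosolic methionyl- and threonyl-tRNA synthetases, and both held the amino acid response motif shown above. MARS had 105, 90.6 and 103 scanner units on the mimic arrays, 52.7, 53.9 and 55.9 on the negative control arrays, and 92.8 and 106 on the mock arrays. All 3 negative control arrays lay below all mimic and mock arrays, which overlapped. The signal was 1.84-fold higher in mimic than in negative control cells (log2 change 0.52 ± 0.05, limma adjusted p = 0.00137) and 1.83-fold lower in negative control than in mock cells (-0.52 ± 0.06, limma adjusted p = 0.00923). Mimic and mock cells differed by 0.00 (95% confidence interval -0.13 to 0.14, limma adjusted p = 0.995). The comparisons with negative control cells share the same 3 negative control arrays.

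TARS had 143, 117 and 114 scanner units on the mimic arrays, 67.8, 73.1 and 71.7 on the negative control arrays, and 149 and 145 on the mock arrays. The negative control arrays were again the lowest, and the mimic arrays also lay below both mock arrays. TARS was 1.76-fold higher in mimic than in negative control cells (log2 change 0.53 ± 0.06, limma adjusted p = 0.00282) and 2.08-fold lower in negative control than in mock cells (-0.71 ± 0.07, limma adjusted p = 0.00622). Against mock the mimic gave -0.18 (95% confidence interval -0.34 to -0.01, limma adjusted p = 0.238). Of all tested genes, 1.73% were called lower in negative control cells than in both other groups. These calls of MARS and TARS passed whichever array was left out.

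WARS, the tryptophanyl-tRNA synthetase and a gene known to respond to interferon, had 273, 251 and 335 scanner units on the mimic arrays, 191, 105 and 171 on the negative control arrays, and 283 and 194 on the mock arrays. Negative control arrays were the lowest, with mock replicate 2 just above them. WARS was 1.84-fold higher in mimic than in negative control cells (log2 change 0.73 ± 0.19, limma adjusted p = 0.0429), and this call was lost whichever of the 6 mimic and negative control arrays was left out (adjusted p 0.0543 to 0.114). Negative control minus mock gave -0.50 (limma adjusted p = 0.237).

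NARS2 and YARS2, the mitochondrial asparaginyl- and tyrosyl-tRNA synthetases, were called higher in mimic than in negative control cells by smaller amounts. NARS2 had 101, 116 and 105 scanner units in mimic cells, 82.6, 81.5 and 92.2 in negative control cells, and 99.3 and 107 in mock cells (log2 change against the negative control 0.22 ± 0.05, limma adjusted p = 0.0319). YARS2 had 538, 517 and 515 scanner units in mimic cells, 466, 480 and 450 in negative control cells, and 506 and 507 in mock cells (log2 change 0.15 ± 0.04, limma adjusted p = 0.0297). In YARS2 the 3 groups did not overlap and mock lay between the others, whereas in NARS2 mimic and mock overlapped. The NARS2 call was lost without mimic replicate 2 or 3 or negative control replicate 1 or 2 (adjusted p 0.0698 to 0.102). The YARS2 call was lost when any mimic array or negative control replicate 1 or 3 was left out (0.0596 to 0.0965).

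Counted by arrays, 7 of the 34 genes had all negative control arrays below all other arrays, against 10.4% of all tested genes, namely MARS, NARS, TARS, WARS, EARS2, NARS2 and YARS2. The opposite order was found in 0 of the 34 genes, against 9.34%. NARS, the cytosolic asparaginyl-tRNA synthetase, had 1357, 1546 and 1216 scanner units in mimic cells, 1116, 1206 and 1215 in negative control cells, and 1388 and 1325 in mock cells. For NARS the nearest mimic and negative control arrays were almost equal and the change did not pass (0.21, limma adjusted p = 0.139). EARS2, a mitochondrial glutamyl-tRNA synthetase, had -0.17 for negative control minus mock (limma adjusted p = 0.0649).

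**Figure D3:**
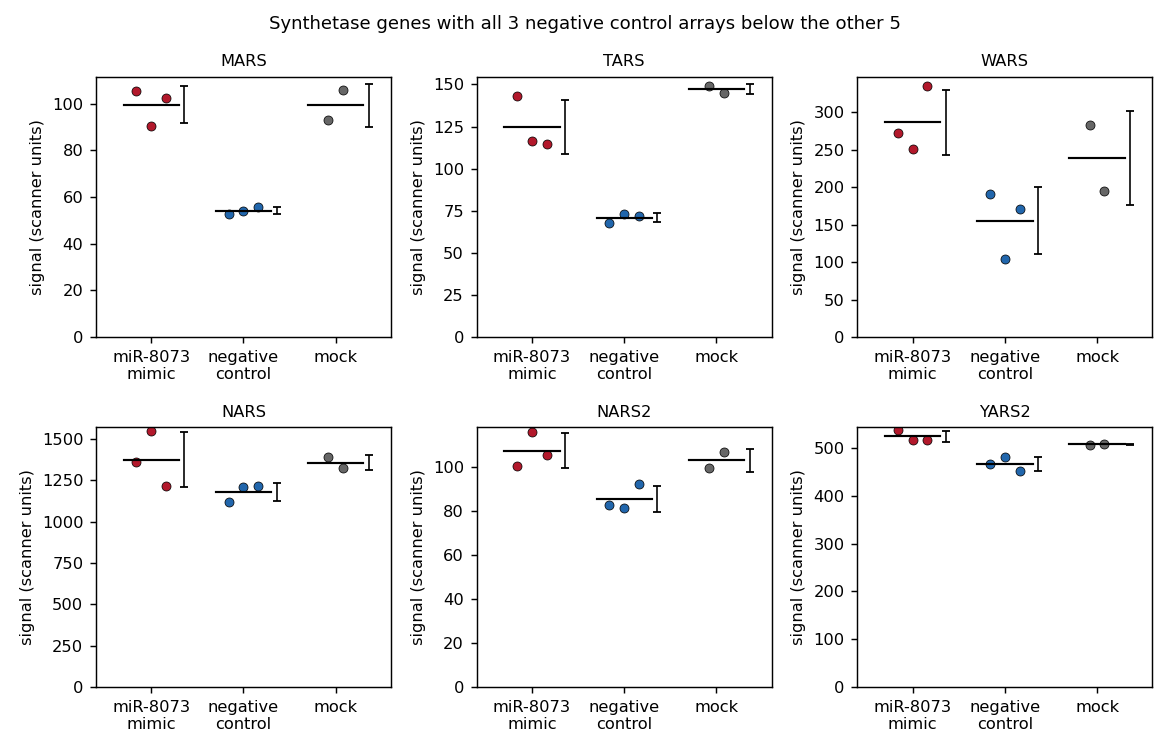
Signal in scanner units (vertical axes, from 0) of 6 of the 7 synthetase genes with every negative control array below the other 5 arrays. Points are arrays of the mimic (3), negative control (3) and mock groups (2), lines are means and bars are the SD. The gap is wide in MARS and TARS and narrow in WARS, NARS and YARS2.

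The changes of the cytosolic genes were set beside the promoter motif. Of the 6 genes that held it, MARS and TARS were called lower in the negative control than in mock, and CARS, IARS, AARS and NARS did not pass, where 2.28% of all tested genes were called lower. The median log2 change of the 6 was -0.10, beside -0.14 for the 13 cytosolic genes without a match or without a window. For mimic minus negative control the medians were 0.17 for the 6 and 0.07 for the 13. AARS, the alanyl-tRNA synthetase, had 841, 804 and 1028 scanner units in mimic cells, 1085, 803 and 1017 in negative control cells, and 769 and 921 in mock cells, which overlap.

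Of the mitochondrial enzymes, IARS2, LARS2 and HARS2 had all mimic arrays below all 5 control arrays on their brighter probe. With FARSA this made 4 of the 34 genes, against 9.14% of all tested genes, and the reverse order held for YARS2 alone, against 8.27%. IARS2, the isoleucyl-tRNA synthetase of the mitochondrion, had 202, 165 and 133 scanner units on the mimic arrays, 281, 267 and 242 on the negative control arrays, and 257 and 284 on the mock arrays. It was 1.58-fold lower in mimic than in negative control cells (log2 change -0.54 ± 0.11, limma adjusted p = 0.0191), and mimic minus mock was -0.58 ± 0.13 (limma adjusted p = 0.0555).

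The other probe of IARS2 had 109, 91.9 and 97.6 scanner units on the mimic arrays, 124, 134 and 116 on the negative control arrays, and 161 and 127 on the mock arrays. The mimic arrays were again the lowest, but the change did not pass against either the negative control (-0.22, limma adjusted p = 0.0969) or mock (-0.37, limma adjusted p = 0.0653). The call on the brighter probe was lost without mimic replicate 2 or negative control replicate 1 or 2 (adjusted p 0.0543 to 0.0713).

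LARS2 charges leucine in the mitochondrion and had a dim probe. Its signals were 7.11, 4.41 and 7.27 scanner units on the mimic arrays, 11.9, 15.3 and 13.6 on the negative control arrays, and 15.7 and 15.9 on the mock arrays. The spot was above background on 2 of the 3 mimic arrays and on all 5 control arrays. It was 2.18-fold lower in mimic than in negative control cells (log2 change -0.18 ± 0.04, limma adjusted p = 0.0205) and 2.52-fold lower than in mock cells (-0.23 ± 0.04, limma adjusted p = 0.0334). Without mimic replicate 2 or negative control replicate 2 or 3 the first call was lost (adjusted p 0.0606 to 0.0653), and the second was lost whichever array was left out, other than negative control replicate 2 (adjusted p 0.0508 to 0.146).

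HARS2, the mitochondrial histidyl-tRNA synthetase, has a close copy in HARS, with which it lies head to head, and cross-hybridisation between them was not tested. Its brighter probe had 245, 247 and 236 scanner units on the mimic arrays, 280, 289 and 267 on the negative control arrays, and 358 and 307 on the mock arrays. It was 1.37-fold lower in mimic than in mock cells (log2 change -0.38 ± 0.06, limma adjusted p = 0.0207) and had -0.17 for mimic minus negative control (limma adjusted p = 0.0863). The call against mock was lost when any mimic array or mock replicate 1 was left out (adjusted p 0.0515 to 0.0692).

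The second HARS2 probe differed from the first in the order of the groups. It had 28.7, 28.5 and 19.5 scanner units on the mimic arrays, 19.7, 23.0 and 24.0 on the negative control arrays, and 46.7 and 44.1 on the mock arrays. Mimic and negative control overlapped and both lay below mock. The change was -0.34 for mimic minus mock (limma adjusted p = 0.0334) and -0.40 for negative control minus mock (limma adjusted p = 0.0223), where the brighter probe did not pass (-0.22, limma adjusted p = 0.103). HARS, the cytosolic enzyme, had 128, 87.0 and 99.5 scanner units in mimic cells, 85.2, 89.5 and 88.1 in negative control cells, and 66.4 and 74.8 in mock cells, with 0.35 for mimic minus mock (limma adjusted p = 0.108).

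**Figure D4:**
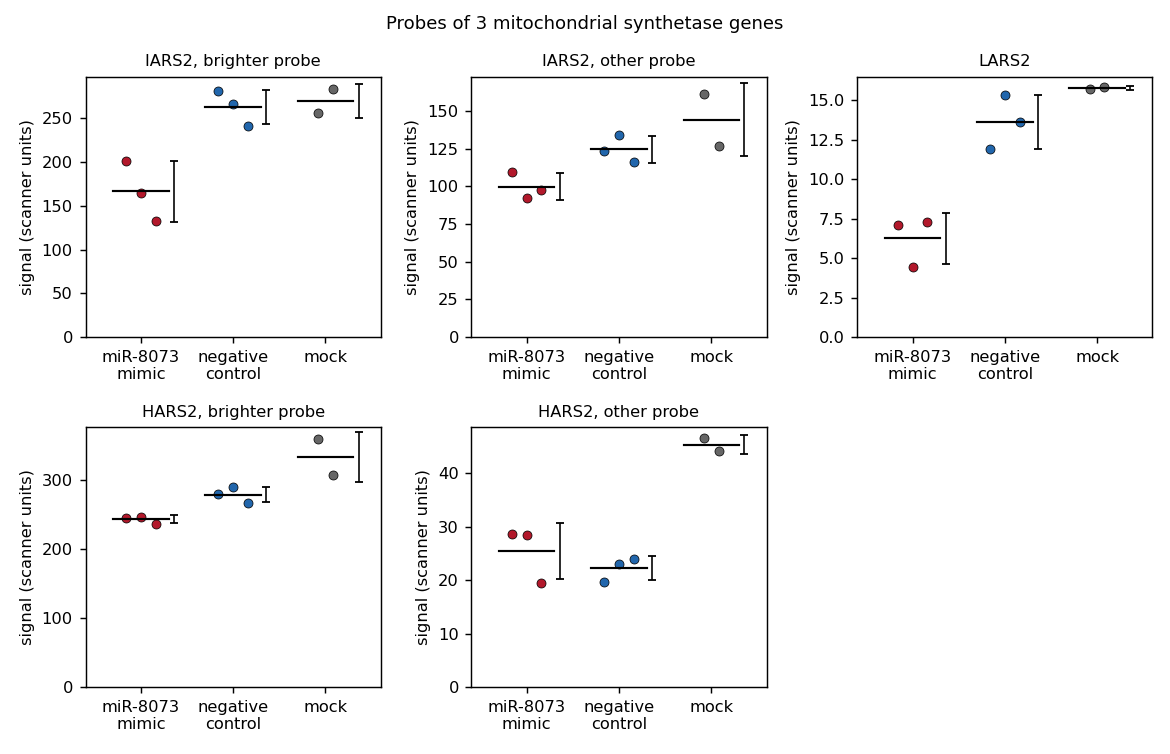
Signal in scanner units (vertical axes, from 0) of the probes of IARS2, LARS2 and HARS2 in miR-8073 mimic (3 arrays), negative control (3) and mock cells (2). Points are arrays, lines are means and bars are the SD. On the other HARS2 probe mimic and negative control arrays overlap, and in the other 4 panels all mimic arrays are the lowest.

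Cytosolic and mitochondrial enzymes for one amino acid form 15 pairs with a tested gene of either kind. EPRS was counted with both EARS2 and PARS2, and FARS2 was paired with FARSA alone. Of the 15 pairs, 6 had log2 changes of opposite sign for mimic minus negative control (those of CARS, FARSA, HARS, IARS, LARS and YARS). Neither gene passed in the pairs of CARS and HARS. IARS had 459, 524 and 475 scanner units in mimic cells, 492, 450 and 483 in negative control cells, and 414 and 547 in mock cells (mimic minus negative control 0.03, limma adjusted p = 0.880), beside the fall of IARS2. LARS, the leucyl-tRNA synthetase of the cytosol, was dim, with 11.4, 10.9 and 9.23 scanner units in mimic cells, 7.04, 10.2 and 7.02 in negative control cells, and 16.2 and 15.6 in mock cells (0.06, limma adjusted p = 0.314). MARS2 and TARS2 did not pass beside the higher MARS and TARS, with 0.12 (limma adjusted p = 0.141) and 0.00 (limma adjusted p = 0.981). The difference within a pair was not tested.

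The brightest synthetase probes were among those that did not pass in any of the 3 comparisons. RARS, the arginyl-tRNA synthetase, had 1399, 1647 and 1577 scanner units in mimic cells, 1542, 1254 and 1071 in negative control cells, and 1499 and 1336 in mock cells. KARS had 1364, 1362 and 1430 in mimic cells, 1076, 1312 and 1425 in negative control cells, and 1280 and 1286 in mock cells. GARS varied widely within groups, with 563, 608 and 409 in mimic cells, 386, 297 and 570 in negative control cells, and 531 and 698 in mock cells (negative control minus mock -0.54, limma adjusted p = 0.286). SARS, the cytosolic seryl-tRNA synthetase, and LARS were nearest to the threshold for negative control minus mock among the genes that did not pass. SARS had -0.23 (limma adjusted p = 0.0581) on its brighter probe and -0.25 (limma adjusted p = 0.245) on its other probe. LARS had -0.18 (limma adjusted p = 0.0577).

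The genes around the synthetases were described from lists chosen with the synthetases. Of the scaffold proteins that join cytosolic synthetases into one complex, AIMP1 and EEF1E1 were measured, and limma called 0 of the 2 in each comparison. At an unadjusted p below 0.05, 2 were higher for mimic minus negative control, 0 passed for mimic minus mock and 1 was lower for negative control minus mock. Of all 10260 tested genes, 1711 were higher in the first comparison, 2042 passed in the second and 1131 were lower in the third. Mitochondria make glutaminyl-tRNA through an amidotransferase, and 2 of the 4 genes of that route and of formyl-methionine transfer were higher in mimic than in negative control cells, against the 8.13% of all tested genes given for that comparison. GATC had 159, 155 and 125 scanner units in mimic cells, 90.8, 73.6 and 88.6 in negative control cells, and 137 and 119 in mock cells (log2 change 0.54, limma adjusted p = 0.00707). QRSL1, another subunit of the same enzyme, was higher by 0.21 (limma adjusted p = 0.0113) and lower in negative control than in mock cells (-0.21, limma adjusted p = 0.0445). Limma called 1 of the 4 lower and 0 higher for negative control minus mock, against 2.28% and 1.61% of all tested genes. For mimic minus mock limma called 0 of the 4, with 0 at an unadjusted p below 0.05.

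YRDC, which acts in making the threonyl-carbamoyl base of transfer RNA, was lower in mimic cells than in either control. It had 93.4, 79.9 and 86.0 scanner units in mimic cells, 181, 170 and 203 in negative control cells, and 178 and 156 in mock cells, so that every mimic array lay below the 5 others. The log2 change was -0.78 against the negative control (limma adjusted p = 0.000898) and -0.67 against mock (limma adjusted p = 0.00668). Of all tested genes, 2.26% were called lower in mimic cells than in both controls. YRDC was 1 of 6 tested genes of a mixed list of transfer RNA editing, base modification and selenocysteine loading. Of these, PSTK, a kinase of seryl-tRNA, was higher in mimic than in negative control cells (0.18, limma adjusted p = 0.0279). Of 15 tested genes of transfer RNA maturation, TRMT61A was lower and TRNT1, RPP40 and ADAT2 were higher in mimic than in negative control cells, with a median of 0.06. Of all tested genes 8.67% were lower and 8.13% higher in that comparison. ADAT2, a subunit of the deaminase that makes inosine in the anticodon, was also lower in negative control than in mock cells (-0.31, limma adjusted p = 0.0121). Of the 15, limma called 1 lower and 0 higher for negative control minus mock, against 2.28% and 1.61% of all tested genes. There 5 of the 15 were lower and 0 higher at an unadjusted p below 0.05, against 1131 and 1123 of all 10260 tested genes. For mimic minus mock limma called 0 of the 15, with 2 lower and 2 higher at an unadjusted p below 0.05. Of all 10260 tested genes, 1057 were lower and 985 higher at that level. For negative control minus mock limma called 0 of the 6 genes of the list that holds YRDC. At an unadjusted p below 0.05, 2 of them were lower, against 1131 of all 10260 tested genes.

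The amino acid response genes other than synthetases had 21 tested members of 25, with medians of 0.10 for mimic minus negative control, 0.05 for mimic minus mock and -0.09 for negative control minus mock. For mimic minus negative control 1 was lower (SHMT2) and 1 higher (DDIT3), for mimic minus mock 1 was lower and for negative control minus mock 1 was lower, in both cases SHMT2. These counts stand beside 8.67% of all tested genes lower and 8.13% higher for mimic minus negative control, 2.88% lower for mimic minus mock and 2.28% lower for negative control minus mock. At an unadjusted limma p below 0.05, 2 of the 21 were lower and 3 higher for mimic minus negative control. Against mock, 2 were lower and 5 higher for the mimic, and 7 lower and 1 higher for the negative control. Of all 10260 tested genes, 1645 were lower and 1711 higher in the first comparison. The numbers were 1057 and 985 in the second, and 1131 and 1123 in the third. SHMT2, the mitochondrial serine hydroxymethyltransferase, had 300, 301 and 316 scanner units in mimic cells, 434, 501 and 457 in negative control cells, and 646 and 643 in mock cells. The 3 groups did not overlap, and the log2 change was -0.53 (limma adjusted p = 0.00128), -0.97 (limma adjusted p = 0.000591) and -0.44 (limma adjusted p = 0.0130) in the 3 comparisons. ATF4 itself had 804, 644 and 717 scanner units in mimic cells, 575.5, 727 and 725 in negative control cells, and 927 and 936.5 in mock cells. ATF4 did not pass for negative control minus mock (-0.44, limma adjusted p = 0.0882), nor did ASNS, the asparagine synthetase (0.37, limma adjusted p = 0.309). DDIT3, an ATF4 target in the stress response, had 155, 171 and 188 scanner units in mimic cells, 79.7, 91.1 and 113 in negative control cells, and 140 and 122 in mock cells (mimic minus negative control 0.62, limma adjusted p = 0.00628).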

How the data were processed

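The authors deposited, for each array, the median intensity of every spot at 635 nm and at 532 nm and that of the ring of pixels around it, without background correction or normalization, and a table of log2 values that they normalized by quantiles. For that table the sources used here do not give the background correction. Each of the 8 arrays held 27456 spots, of which 2680 were blank. RNA was amplified and coupled to Cy5, per the labels. The number of arrays limits the precision.

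The intensity at 635 nm was corrected by normexp on the blank spots with an offset of 50 and quantile-normalized. Control spots and 13 faulty probe spots were left out. Signals are normalized values minus the offset, and folds are ratios of group means. Changes were tested in limma 3.58.1 (R 4.3.3, jsonlite 2.0.0) with 3 group means over all 8 arrays (lmFit and eBayes, 5 residual degrees of freedom), 2-sided, with Benjamini-Hochberg adjustment over 12904 probes and a threshold of 0.05. The fit was tested on simulated data. One gene of the list is not reported here. The platform table named 1 gene for 20236 probes and none for 4224.

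The genes, lists, promoter motif and the choice of blank spots as background were set with earlier results of these data known, including that the ring background gave no calls. Named genes were FARSA, FARSB, those past the threshold, those whose probes disagreed in call, pairs of enzymes for one amino acid with a called gene, and the 5 genes most correlated with FARSA. RARS, KARS, GARS, SARS, AARS, NARS, EARS2, YRDC, MPI, ATF4, the other list genes and the genes at the ends of ranges were named after their values were seen. Sequences and promoter windows were from RefSeq (GRCh38.p14). Alternatives changed the background, offset, normalization, filter, variance model, test, probe rule and arrays. The methods' t-test was here an unpaired t-test with Benjamini-Hochberg adjustment and the threshold of the main fit. The study's own selection also set limits on fold change and signal strength against both controls, and names no adjustment. That selection was not repeated here.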

Additional observations from a re-analysis of the deposited data

How the results depend on the processing

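The number of synthetase genes called for mimic minus negative control was 8, and 5 with arrays centred on their medians, 5 with the authors' log2 values, 5 without a filter on dim probes, 2 with the methods' t-test, 0 with the ring background and 3 to 9 with 1 array left out. Of the cytosolic genes 4 were called, and 2 with the t-test, 0 with the ring and 3 to 4 with 1 array left out. Of the mitochondrial genes 4 were called, and 2 with median centring, no filter or an intensity trend, 1 with the authors' log2 values, 0 with the ring or the t-test (7 at an unadjusted p below 0.05 by the t-test) and 0 to 5 with 1 array left out. For mimic minus mock 3 were called, and 1 with median centring, no filter or a fit of the 2 groups alone, 0 with the ring or the t-test (9 at an unadjusted p below 0.05 by the t-test) and 0 to 3 with 1 array left out, the 0 without mimic replicate 3 or mock replicate 1 and 1 without mimic replicate 2 or mock replicate 2. For negative control minus mock 2 were called, 4 with an intensity trend, 0 with the ring or the t-test (9 at an unadjusted p below 0.05 by the t-test) and 2 to 3 with 1 array left out. The calls over all tested genes moved as well. For mimic minus negative control they were 1724, and 815 with median centring, 778 with the authors' log2 values, 1034 without a filter and 709 with the t-test. For mimic minus mock they were 433, and 91 with median centring, 129 with the authors' log2 values, 240 without a filter, 655 with an intensity trend, 168 with the 2 groups alone, 199 with the block and 2 with the t-test. For negative control minus mock they were 399, and 80 with median centring, 75 with the authors' log2 values, 633 with an offset of 16, 159 without a filter, 720 with an intensity trend, 157 with the 2 groups alone, 123 with the block and 6 with the t-test. With the ring they were 0 in each comparison. With 1 array left out they were 919 to 1879, 109 to 336 and 63 to 354 for the same 3 comparisons in this order. At an unadjusted p below 0.05 the main limma fit had 3356, 2042 and 2254 of all 10260 tested genes.

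FARSA for mimic minus negative control was -0.71 with the ring, where it did not pass, and -1.38 with the t-test (adjusted p 0.0621), and -1.60 to -1.22 with 1 array left out, past the threshold each time. FARSA for mimic minus mock did not pass with the ring (-0.057), median centring (-1.24, adjusted p 0.0793), no filter (-1.26, adjusted p 0.0881) or the t-test (-1.26, adjusted p 0.172), and gave -1.34 to -1.17 with 1 array left out, where it did not pass without mimic replicate 1 or 3 or mock replicate 1 or 2 (adjusted p up to 0.121). FARSA relative to FARSB was -0.28 with the ring, -1.53 with the authors' log2 values and -1.25 to -1.04 with 1 array left out. The cause was not tested.

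With the replicate number as a block, limma called 6 synthetase genes for mimic minus negative control (2 of them mitochondrial), 0 for mimic minus mock (7 at an unadjusted p below 0.05) and 2 for negative control minus mock, and FARSA for mimic minus mock was -1.30 (adjusted p 0.0726). The deviations of same-numbered arrays correlated at 0.10, 0.025 and 0.027 for mimic and negative control, at 0.345 and 0.269 for mimic and mock, and at -0.106 and -0.0042 for negative control and mock. Nothing in the labels ties same-numbered samples together and not every pair was above 0.1, so they were taken to share only a number.

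Directions turned only for changes that had not passed, except YARS2 for mimic minus negative control (-0.018 with the ring). With the ring also HARS2 for mimic minus negative control (0.0029), FARSB, YARS2 and WARS for mimic minus mock (0.58, -0.59 and -0.45) and NARS2 for negative control minus mock (0.092) turned. MARS for mimic minus mock turned with the replicate block (-0.0118), median centring (-0.0034) or the authors' log2 values (-0.035), and ran from -0.061 to 0.065 with 1 array left out, below 0 without mimic replicate 1 (-0.027), mimic replicate 3 (-0.0134) or mock replicate 1. NARS2 for mimic minus mock ran from -0.0008 (without mimic replicate 2) to 0.074. For negative control minus mock with 1 array left out, FARSA ran from -0.042 to 0.34, FARSB from -0.081 to 0.24 and IARS2 from -0.094 to 0.028 (0.017 without negative control replicate 3). FARSB there also turned with median centring (-0.0134) and IARS2 with the replicate block (0.0501).

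Median centring called 2 synthetase genes lower and 3 higher for mimic minus negative control and 1 lower for mimic minus mock (IARS2). It gave 35.5%, 80.2% and 90% lower among all called genes in the 3 comparisons, against 51.6%, 68.1% and 58.7%. The authors' log2 values moved the median of all genes to 0.08, -0.03 and -0.11. LARS2 and other dim probes were limited by their signal over background.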

Other observations

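The reading of the second wavelength, which belonged to no sample, exceeded 95% of the blank spots for 0 of the synthetase probes on 7 arrays and for 1 on mimic replicate 2, and for 0.846% to 3.07% of all probes.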
